A study of Homo sapiens with 5 samples.

Results

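The genes described here are human antisense genes, named with the suffix -AS1 after the gene they lie against, and the genes they are paired with by name. They were selected on their counts: of the 717 entries of the submitters' comparison table whose name ends in -AS1, the 195 with at least 50 directional reads in each of the 5 libraries were taken, and the sense gene was looked up by the symbol before the suffix. That minimum is a measured value, so the level of these genes is a description, and a gene that is low in either group was left out by it. The cells were NCI-H209, an established line of small cell lung cancer (SCLC). The control group comprised 3 untreated cultures, and the co-cultured group comprised 2 cultures kept for 24 h with human brain microvascular endothelial cells (HBMECs) in a Transwell system, in which the cells share medium across a porous membrane. RNA was depleted of ribosomal RNA and sequenced with a directional kit, so that reads of an antisense transcript and of the gene it overlaps fall in different columns of counts. The labels number the cultures within a group without saying whether they were grown separately, so p-values measure the spread between these samples only.

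An antisense RNA is transcribed from the strand opposite to another gene. Many start at the same promoter region as their partner and run away from it (head-to-head), some run into the end of their partner so that the 3′ ends overlap, and others start inside it. Individual antisense RNAs are known to act on their partner in either direction, through the chromatin of a shared promoter or through pairing of the RNAs, and many are short-lived in the nucleus, where the RNA exosome degrades them.

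Directional reads assigned to genes ran from 15457071 to 19157348 per library, and 92.3% to 93.1% of the reads of both strand columns lay on the directional strand. In co-culture 16.8% and 15.9% of reads were unmapped, against 8.13% to 8.48% in control, and the part of that difference in the results was not tested. Of 8 SCLC neuroendocrine markers 7 were tested, and their summed level was 1804 to 2217 CPM (reads of a gene scaled to the size of its library) in control and 2315 and 2429 CPM in co-culture. The exception was CHGA, the chromogranin A gene, with at most 1 read per library. The 12 endothelial markers summed to 9.56 to 19.3 CPM in control and to 12.9 and 13.1 CPM in co-culture, and 3 of them had at most 3 reads in every library. VWF and ERG made up most of that sum, and 1 of the 8 markers tested was called, ESAM, an endothelial adhesion gene, which was higher with 3, 4 and 6 reads in control and 21 and 14 in co-culture (2.14 ± 0.46 on the log2 scale, adjusted p = 0.00666). Its part in the results was not tested. The first control library was the control nearest to co-culture for 57.4% of the 61 antisense genes called below and for 55.7% of all genes called.

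The 195 antisense genes lay on 23 chromosomes and were annotated in GENCODE release 29 mostly as antisense (136), lincRNA (27) or processed transcript (27). Their mean level was 3.34 to 782 CPM, with a median of 11.1 CPM, and their exons covered 426 to 20654 bases, with a median of 3416. The sense gene was found for 193, the exceptions being HOXB-AS1 and RPARP-AS1, and 176 sense genes passed the filter on low counts. By the annotation (GRCh38, as all coordinates below) 82 pairs were head-to-head, here meaning opposite strands with starts at most 2000 bases apart. In 49 pairs the 3′ ends overlapped, in 42 the antisense gene started inside its sense gene, and in 18 the sense gene started inside the antisense gene. DNAJC9-AS1 did not overlap its partner, and TMSB15B-AS1 was annotated on the same strand as TMSB15B.

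Promoter windows of 5 antisense genes are printed here because their transcripts changed strongly or because the genes of the pair changed unequally. Each window runs from 250 bases before to 50 bases after the start in RefSeq (GRCh38.p14), 5′ to 3′ on the strand of the antisense gene. Capitals mark matches on either strand of the TATA box letters TATAAA, of the CCAAT box, and of the letters ACGTG. The E-box CACGTG is a palindrome and matches ACGTG on both strands. A match of ACGTG alone need not be an E-box. ELF3-AS1 (chr1:202010304-202010603, minus strand) and FAM13A-AS1 (chr4:88709539-88709838, plus strand) had the largest rises. ALOX12-AS1 (chr17:7012285-7012584, minus strand) and TMCC1-AS1 (chr3:129893621-129893920, plus strand, TMCC1-DT in RefSeq) fell. In RAB30-AS1 (chr11:83071816-83072115, plus strand, RAB30-DT in RefSeq) the window also holds the start of RAB30 on the other strand.
ELF3-AS1: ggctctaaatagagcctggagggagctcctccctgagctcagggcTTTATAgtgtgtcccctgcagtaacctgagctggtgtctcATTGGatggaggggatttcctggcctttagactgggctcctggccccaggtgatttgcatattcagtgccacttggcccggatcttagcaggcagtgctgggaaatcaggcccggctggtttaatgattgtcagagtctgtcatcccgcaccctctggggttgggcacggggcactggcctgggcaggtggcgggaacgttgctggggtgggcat
FAM13A-AS1: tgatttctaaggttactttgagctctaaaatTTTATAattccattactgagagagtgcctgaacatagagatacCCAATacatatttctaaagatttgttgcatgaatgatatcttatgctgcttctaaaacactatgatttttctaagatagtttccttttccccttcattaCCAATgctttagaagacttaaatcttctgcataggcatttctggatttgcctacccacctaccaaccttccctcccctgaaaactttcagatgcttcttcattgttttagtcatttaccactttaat
ALOX12-AS1: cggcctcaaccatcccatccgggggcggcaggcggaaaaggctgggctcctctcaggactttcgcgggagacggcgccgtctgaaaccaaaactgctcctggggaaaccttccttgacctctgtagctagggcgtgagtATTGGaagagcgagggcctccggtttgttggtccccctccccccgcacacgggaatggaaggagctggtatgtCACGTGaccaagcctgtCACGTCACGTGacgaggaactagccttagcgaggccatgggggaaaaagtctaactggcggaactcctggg
TMCC1-AS1: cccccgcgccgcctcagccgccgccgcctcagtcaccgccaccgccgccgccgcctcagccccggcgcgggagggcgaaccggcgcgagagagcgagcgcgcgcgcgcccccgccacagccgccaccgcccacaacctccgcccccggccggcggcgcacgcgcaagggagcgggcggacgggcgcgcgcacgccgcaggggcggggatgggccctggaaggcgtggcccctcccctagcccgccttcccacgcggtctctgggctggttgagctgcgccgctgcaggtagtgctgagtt
RAB30-AS1: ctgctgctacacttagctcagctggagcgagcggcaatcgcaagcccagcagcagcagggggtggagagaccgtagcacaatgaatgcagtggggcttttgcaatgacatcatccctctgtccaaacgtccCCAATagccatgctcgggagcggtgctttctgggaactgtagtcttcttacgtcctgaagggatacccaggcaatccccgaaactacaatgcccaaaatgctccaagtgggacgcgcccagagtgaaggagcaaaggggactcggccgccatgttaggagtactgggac
The windows differ in composition, from 34.3% G and C with 0 CpG in FAM13A-AS1 to 80.3% with 49 CpG in TMCC1-AS1. ELF3-AS1 and FAM13A-AS1 each had 1 match of the letters TATAAA. Both matches lay on the strand opposite to the antisense gene, near the 5′ end of the window and far from the RefSeq start. ALOX12-AS1 had 5 matches of ACGTG. The CCAAT box had 2 matches in FAM13A-AS1 and 1 each in ELF3-AS1, ALOX12-AS1 and RAB30-AS1, and TMCC1-AS1 had no match of any kind. Of the 195 genes 156 matched a RefSeq window, with a median of 64.3% G and C and 25.5 CpG, against 58.7% and 14 over all 35116 promoters of the table. The TATA box letters were present in 5.13% of them and in 11.5% of all promoters. The CCAAT box was present in 32.7% and 34.6%, and the letters ACGTG in 30.8% and 21.4%. By position ACGTG was held by 38.8% of the 67 head-to-head windows and 41.2% of the 17 with the sense start inside the antisense gene. It was held by 26.7% of the 30 with the antisense start inside the sense gene and 17.5% of the 40 with overlapping 3′ ends.

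To see whether the reads came from the antisense strand, the reads of the opposite column, which are those of the sense strand over the same exons, were counted for every antisense gene. In protein-coding genes with at least 1000 reads and no annotated gene on the other strand, the median share of reads on the wrong strand was 0.112% to 0.199% per library. With these shares, wrong-strand reads would make up at most 3.79% of the count of any of the 195 genes in any library, and the median of the largest share per gene was 0.0277%. The share exceeded 1% in 5 genes, among them, named here after their values were seen, H1FX-AS1 (3.79%), RUSC1-AS1 (2.75%), USP3-AS1 (1.71%) and TMPO-AS1 (1.03%). H1FX-AS1, opposite a linker histone gene, had 240, 173 and 230 directional reads in control and 110 and 107 in co-culture. The first control library held 2941 reads of the sense strand over the exons of H1FX-AS1. The largest share, 3.79%, was that of the first co-cultured library. With the upper quartile of the wrong-strand shares in place of the median, the largest share was 9.45%, again in H1FX-AS1. In 29 genes the sense strand had more reads over the exons than the antisense strand itself.

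**Figure D1:**
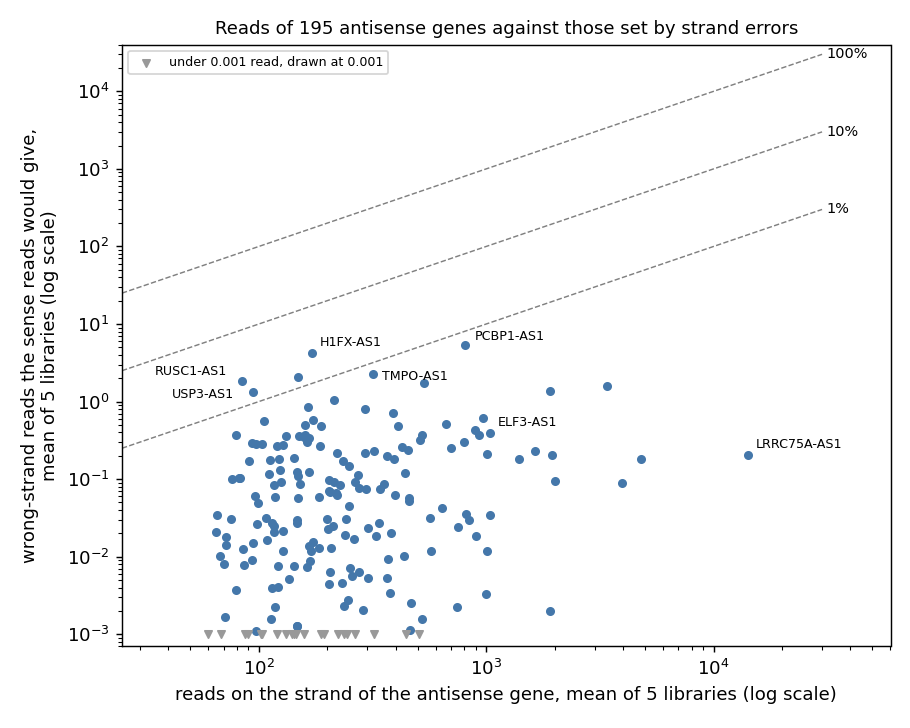
Each point is an antisense gene, with its directional reads on one axis and the wrong-strand reads that its sense-strand reads would give on the other, both on log scales. All 195 genes lie under the line at which wrong-strand reads would make up 10% of the count.

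After subtraction of the expected wrong-strand reads, all 61 antisense genes called below were called again. The reverse error was larger for a few sense genes: reads of the antisense strand would give up to 48.7% of the count of PAPPA, a metalloproteinase gene, and 31.9% of that of TTN, the titin gene. Genes on the same strand set a further limit, since a read that falls on exons of several entries is counted for none of them. In 36 antisense genes another annotated gene ran along the same strand, and in 5 exons of another entry covered at least 10% of their exonic bases. Such cover was found in 11 of the 193 sense genes, and in 2 it was at least 50%. CCDC183, which stays among the tested sense genes, shared 70.5% with another entry, so its count is not a level of the gene.

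In co-culture 14 of the 195 antisense genes were higher and 47 lower by edgeR's quasi-likelihood test at an adjusted p under 0.05, that is 7.18% and 24.1% of them. Of all 20360 genes tested 33.4% were called, 18.4% higher and 15% lower. Among the 12775 genes that had at least 50 reads in every library, 24.1% were higher and 18.1% lower. The median log2 fold change was −0.15 over the antisense genes, −0.03 over all genes and 0.06 over protein-coding genes, and 126 of the 195 values were below 0. Upper-quartile normalization moved the median of all genes to −0.11 and turned the calls over all genes from 3750 higher and 3059 lower to 3076 and 3929, with 12 antisense genes higher and 60 lower.

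Their 176 tested sense genes were split otherwise, with 40 higher (22.7%), 28 lower (15.9%) and a median of 0.04. In 30 antisense genes both co-cultured libraries lay above every control library and in 80 below (15.4% and 41%). The same held for 36.4% and 25% of the tested sense genes. Of all genes tested, which include genes with fewer reads, it held for 29.4% and 30%. In the calls, other non-coding genes with at least 50 reads in every library had a split like that of the antisense genes. Of 374 genes of the annotated type antisense, which hold 136 of those described here, 17 were higher and 92 lower, and of 411 lincRNA genes 34 were higher and 106 lower. Without the minimum of 50 reads, 25 of 413 tested -AS1 genes were higher and 72 lower, and of 72 intronic transcripts (-IT1) 2 and 8.

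**Figure D2:**
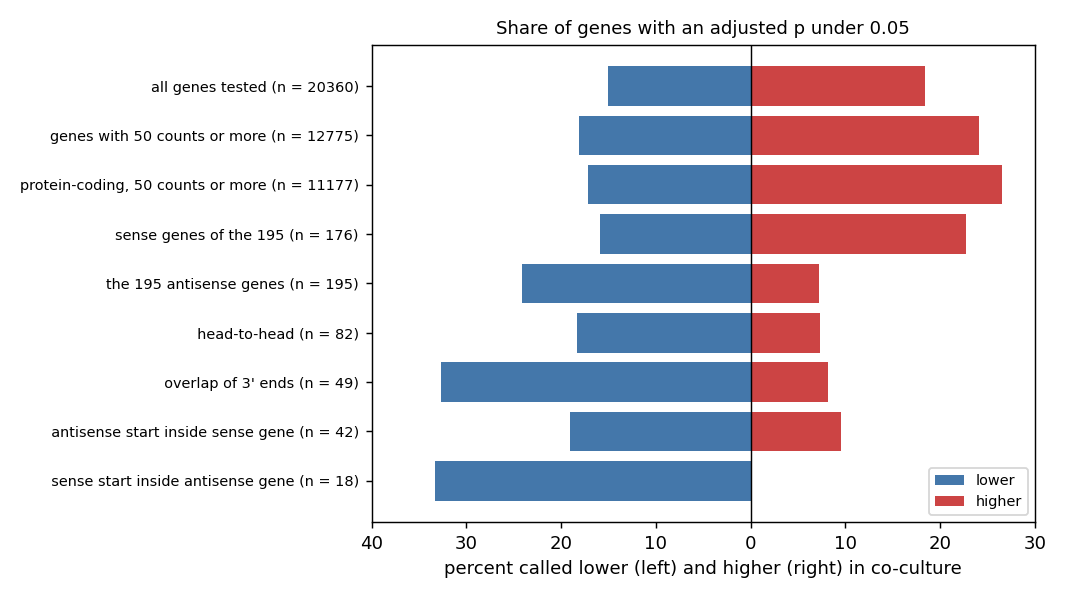
Bars give the percent of genes with an adjusted p under 0.05 that were lower or higher in co-culture, by set of genes. The 195 antisense genes have 24.1% lower and 7.18% higher, whereas their sense genes have 15.9% and 22.7%.

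The calls rest on few libraries. With 1 library left out in turn, between 18 and 94 of the antisense genes were called, the lowest without the first co-cultured library and the highest without the first control library. The split was 5 higher and 13 lower in the former case and 20 and 74 in the latter. In all 5 of these fits 16 antisense genes were called in the same direction (26.2% of the 61, against 32.3% of all genes called). The 4 that were higher throughout were DARS-AS1, ELF3-AS1, SBF2-AS1 and VLDLR-AS1. The 12 that were lower throughout included ALOX12-AS1, ID2-AS1, KCNMB2-AS1, KDM4A-AS1, PROX1-AS1, SLC25A25-AS1, SLC9A3-AS1, TMCC1-AS1, TTC28-AS1, TTN-AS1 and ZSCAN16-AS1.

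The criterion of the study was a fold change above 1 in absolute value and p under 0.05. It was read here as more than 1 log2 unit and p before adjustment. By it 3 of the 195 antisense genes were up and 9 down, where 5.44% and 5.01% of all genes were. Among the 12775 genes with at least 50 reads in every library, 441 were up and 215 down. ELF3-AS1 (chr1:201995696-202010463, minus strand) starts inside ELF3, which encodes an epithelial transcription factor of the ETS family. It had 29.6, 34.1 and 35.6 CPM in control and 102 and 96.5 CPM in co-culture, and a log2 fold change of 1.58 ± 0.09 (SE, adjusted p = 2.19e-05). The groups were far apart. ELF3 itself had 80.4, 89.2 and 101 CPM in control and 202 and 168 CPM in co-culture (1.04 ± 0.11, adjusted p = 0.000244), so that both genes of the pair rose without overlap of the groups. The antisense to sense ratio, tested with limma as the log2 ratio of the CPM of both genes, had a difference that did not pass (0.54 ± 0.20, adjusted p = 0.0856).

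DARS-AS1 (chr2:135985176-136022593, plus strand) is head-to-head with DARS, the cytoplasmic aspartyl-tRNA synthetase gene, with starts 924 bases apart. Its levels were 6.26, 7.12 and 8.23 CPM in control and 16.7 and 13.9 CPM in co-culture (1.09 ± 0.16, adjusted p = 0.00108). DARS rose as well, from 62.4, 65.4 and 77.95 CPM to 118 and 118 CPM (0.78 ± 0.10, adjusted p = 0.000553), and the difference of the ratio did not pass (0.25 ± 0.21, adjusted p = 0.387). Neither gene had overlapping groups. FAM13A-AS1 (chr4:88709789-88730103, plus strand), whose 3′ end overlaps that of FAM13A, a gene associated with lung function, was less even between the co-cultured libraries. It had 3.29, 4.91 and 4.86 CPM in control and 13.3 and 6.66 CPM in co-culture (1.20 ± 0.29, adjusted p = 0.012), and its call was lost without the first co-cultured library (0.62). FAM13A had 7.96, 7.07 and 8.03 CPM in control and 12.2 and 9.89 CPM in co-culture (0.52 ± 0.15, adjusted p = 0.0275), and its call was lost without any library but the first control (between 0.37 and 0.67).

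Among the 9 that were down, KDM4A-AS1 (chr1:43699765-43708138, minus strand) fell most. KDM4A encodes a histone lysine demethylase, and the genes share 464 exonic bases at their 3′ ends. KDM4A-AS1 had 18.8, 31.4 and 36.7 CPM in control and 9.99 and 7.98 CPM in co-culture (−1.68 ± 0.27, adjusted p = 0.00159). KDM4A moved the other way, from 58.7, 52.8 and 50.2 CPM to 66.4 and 68.98 CPM (0.33 ± 0.09, adjusted p = 0.0203). The groups did not overlap for either gene, and the first control library stood nearest to co-culture for both. The call of KDM4A was lost without any library but the first control (between 0.28 and 0.36).

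PROX1-AS1 (chr1:213817751-213988508, minus strand) starts inside PROX1, a homeobox factor gene of lymphatic endothelium and of neural progenitors. It had 52.02, 66.2 and 70.4 CPM in control and 27.8 and 27.04 CPM in co-culture (−1.20 ± 0.13, adjusted p = 0.000269). PROX1 fell with it, from 609, 465 and 505 CPM to 345 and 362 CPM (−0.57 ± 0.12, adjusted p = 0.00533), a call that was lost without either co-cultured library (−0.53 and −0.60). The groups of PROX1-AS1 and PROX1 were apart. ALOX12-AS1 (chr17:6876635-7012349, minus strand) spans the start of ALOX12, a lipoxygenase gene. Its levels were 14.6, 18.1 and 17.2 CPM in control and 7.09 and 7.72 CPM in co-culture (−1.17 ± 0.15, adjusted p = 0.000505), while ALOX12 had 1 read in each control library and 0 in co-culture.

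TMCC1-AS1 (chr3:129893811-129918575, plus strand) starts 205 bases from TMCC1, which encodes a membrane protein of the endoplasmic reticulum, and shares no exonic base with it. It fell from 9.66, 10.3 and 13.2 CPM to 4.37 and 5.54 CPM (−1.17 ± 0.20, adjusted p = 0.00228), whereas TMCC1 lay between 48.4 and 55.4 CPM in all libraries, with overlapping groups (0.06 ± 0.09, adjusted p = 0.616). The ratio was lower (−1.14 ± 0.23, adjusted p = 0.0109). ZSCAN16-AS1 (chr6:28121795-28137293, minus strand), which spans the start of the zinc finger gene ZSCAN16, had 14.4, 11.7 and 15.6 CPM in control and 6.71 and 7.12 CPM in co-culture (−1.01 ± 0.16, adjusted p = 0.00179). ZSCAN16 lay between 10.6 and 11.5 CPM throughout (0.02 ± 0.13, adjusted p = 0.936). The antisense groups of both pairs were apart while the sense groups overlapped.

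**Figure D3:**
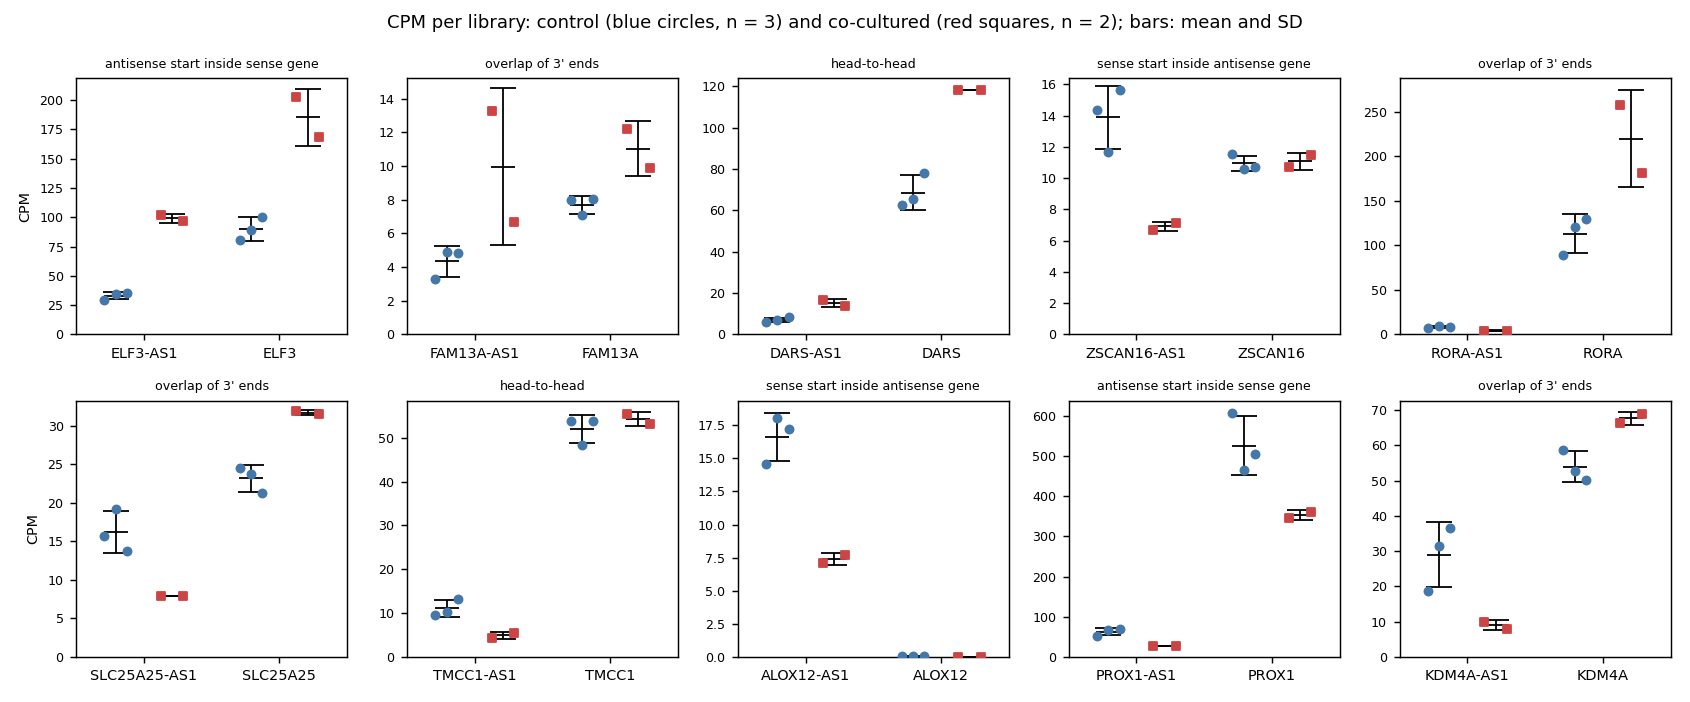
CPM per library of 10 of the antisense genes with an absolute log2 fold change above 1 and an adjusted p under 0.05, each beside its sense gene, with points for the 3 control and 2 co-cultured libraries and bars for mean and SD. ELF3-AS1, FAM13A-AS1 and DARS-AS1 are higher in co-culture, and for the other 7 both co-cultured libraries lie below every control library.

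Both genes of a pair were then compared for direction. Of the 176 pairs with a tested sense gene 93 (52.8%) had values of the same sign, and of the 235 other -AS pairs tested 55.7% did. Across the 176 pairs, which share the libraries and are not independent, Pearson's r between the changes of antisense and sense gene was 0.26 and Spearman's rho 0.17. Only the antisense gene was called in 33 pairs, only the sense gene in 46 and neither in 75. In the 22 pairs with both called, 16 moved in the same direction, 8 higher and 8 lower, and 6 in opposite directions. The count of pairs with both called was 55 without the first control library, 32 in the same and 23 in opposite directions, and 3 without the first co-cultured library, all in the same direction.

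The counts were also taken by position. Of 10 head-to-head pairs with both genes called 9 moved the same way, as did 4 of 4 pairs in which the antisense gene starts inside its sense gene. Where the 3′ ends overlap, 3 of 8 such pairs moved the same way and 5 opposite ways. Over whole classes, called or not, values had the same sign in 42 of 80 head-to-head pairs (52.5%). They did in 24 of 37 pairs with the antisense start inside the sense gene (64.9%) and in 22 of 45 with overlapping 3′ ends (48.9%). Of the 13 pairs in which the sense gene starts inside the antisense gene 0 had both genes called, and 4 (30.8%) had values of the same sign. As a description, Pearson's r was 0.40 over 80 head-to-head pairs, 0.50 over 37 with the antisense start inside the sense gene, −0.03 over 45 with overlapping 3′ ends and −0.47 over the 13 with the sense start inside the antisense gene. The difference between these classes was not tested.

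**Figure D4:**
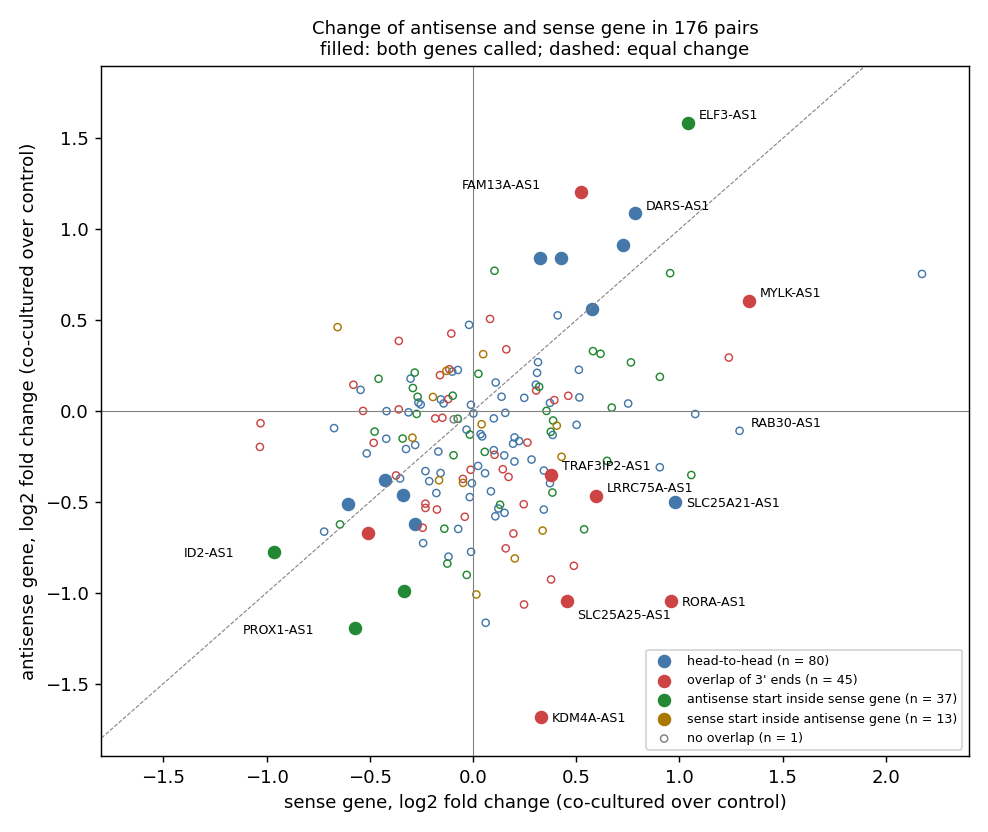
Log2 fold changes (co-cultured over control) of antisense and sense gene for 176 pairs, coloured by position, with filled points where both genes were called. Of the filled points 8 have both genes higher, 8 both lower and 6 the antisense gene lower and the sense gene higher.

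The 16 pairs that moved together were named after their values were seen, except those given above. Head-to-head and higher were DARS, MNX1, NRSN2, STXBP5 and C1RL with their antisense genes. MNX1-AS1 starts 154 bases from MNX1, a homeobox gene of motor neurons, and had 3.50, 3.20 and 4.50 CPM in control and 6.49 and 6.92 CPM in co-culture (0.84 ± 0.20, adjusted p = 0.0112). MNX1 had 34.6, 31.6 and 29.2 CPM in control and 41.6 and 43.9 CPM in co-culture (0.43 ± 0.10, adjusted p = 0.00995). Both groups were apart, and no read of the sense strand fell on the exons of MNX1-AS1 in any library. NRSN2-AS1 (0.91 ± 0.19, adjusted p = 0.00588) and NRSN2, a neuronal vesicle protein gene (0.73 ± 0.10, adjusted p = 0.00098), rose together. STXBP5-AS1 (0.84 ± 0.21) rose with STXBP5, the tomosyn gene (0.32 ± 0.08), and C1RL-AS1 (0.56 ± 0.14) with C1RL, a protease gene related to complement (0.58 ± 0.11). Most of these calls were lost when a co-cultured library was left out, in fits that hold fewer libraries. The log2 fold changes given in brackets below kept their direction. That of MNX1-AS1 was lost without either co-cultured library (0.90 and 0.80) and that of MNX1 without either co-cultured library (0.47 and 0.39). That of NRSN2-AS1 was lost without the first co-cultured library (0.73), that of C1RL-AS1 without the first co-cultured library (0.43) and that of C1RL without the first co-cultured library (0.55). That of STXBP5-AS1 was lost without either co-cultured library (0.85 and 0.84) and that of STXBP5 without the third control library (0.28) or either co-cultured library (0.33 and 0.34).

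Head-to-head and lower were THAP9, TPT1, PTOV1 and TMEM161B with their antisense genes. TPT1-AS1 starts 25 bases from TPT1, the gene of the translationally controlled tumour protein, and had 44.2, 59.5 and 57.00 CPM in control and 35.7 and 33.96 CPM in co-culture (−0.62 ± 0.13, adjusted p = 0.006). TPT1 itself had 1159, 1203 and 1235 CPM in control and 986 and 990.1 CPM in co-culture (−0.28 ± 0.08, adjusted p = 0.0279). The groups were apart for both. THAP9-AS1 had −0.51 ± 0.16 and THAP9, a gene of a transposase-derived protein, −0.61 ± 0.18. PTOV1-AS1 had −0.46 ± 0.15 and PTOV1 −0.34 ± 0.07, and TMEM161B-AS1 had −0.38 ± 0.12 and TMEM161B −0.43 ± 0.08. None of the 4 antisense calls held in every fit with 1 library left out. The call of TPT1-AS1 was lost without either co-cultured library (−0.65 and −0.58) and that of TPT1 without any library but the first control (between −0.28 and −0.25). The call of THAP9-AS1 was lost without any library but the first control (between −0.60 and −0.42) and that of THAP9 without any library but the first control (between −0.70 and −0.51). The call of PTOV1-AS1 was lost without any library but the first control (between −0.57 and −0.35) and that of PTOV1 without either co-cultured library (−0.34 and −0.33). The call of TMEM161B-AS1 was lost without any library but the first control (between −0.38 and −0.32) and that of TMEM161B without the first co-cultured library (−0.37).

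The remaining pairs that moved together were not head-to-head. ID2-AS1 starts inside ID2, which encodes an inhibitor of helix-loop-helix transcription factors. It fell from 27.6, 28.8 and 29.4 CPM to 16.6 and 16.9 CPM (−0.77 ± 0.10, adjusted p = 0.000597), and ID2 from 342, 246 and 257 CPM to 142 and 146 CPM (−0.96 ± 0.14, adjusted p = 0.000989). DARS, ELF3 and ID2 formed the 3 pairs in which both calls held whichever library was left out. MYLK-AS1 and MYLK, the myosin light chain kinase gene, overlap at their 3′ ends and were both higher, at 0.61 ± 0.14 and 1.34 ± 0.13, and the call of MYLK-AS1 was lost without the first co-cultured library (0.55). CCDC18-AS1 (−0.67 ± 0.19) and CCDC18 (−0.51 ± 0.08) were lower, as were EXTL3-AS1 (−0.99 ± 0.24) and EXTL3 (−0.34 ± 0.10), a glycosyltransferase gene of heparan sulfate synthesis. The call of CCDC18-AS1 was lost without any library but the first control (between −0.69 and −0.52). The call of EXTL3-AS1 was lost without either co-cultured library (−0.93 and −1.04) and that of EXTL3 without either co-cultured library (−0.30 and −0.36).

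In the 6 pairs called in opposite directions the antisense gene was the one that fell. Apart from KDM4A they were RORA, SLC25A25, LRRC75A and TRAF3IP2, whose 3′ ends overlap those of their antisense genes, and SLC25A21, which is head-to-head. RORA-AS1 (chr15:60479178-60630637, plus strand) had 7.64, 9.33 and 7.92 CPM in control and 3.66 and 4.42 CPM in co-culture (−1.04 ± 0.19, adjusted p = 0.00284). RORA, a nuclear receptor gene of the circadian clock, had 88.7, 121 and 129.8 CPM in control and 258 and 181 CPM in co-culture (0.96 ± 0.18, adjusted p = 0.00326). The groups were apart for both genes, but the call of RORA-AS1 was lost without the first co-cultured library (−0.90) and that of RORA without the first co-cultured library (0.69). The reads of the RORA strand over the exons of RORA-AS1 numbered 125, 147 and 153 in control and 267 and 170 in co-culture, above every control count, and with the reads of both strands summed RORA-AS1 had a log2 fold change of 0.05.

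SLC25A25-AS1 (chr9:128108581-128118693, minus strand) had 15.7, 19.2 and 13.8 CPM in control and 7.86 and 7.85 CPM in co-culture (−1.04 ± 0.17, adjusted p = 0.00161). SLC25A25, the gene of a mitochondrial carrier of adenine nucleotides, rose from 24.5, 23.7 and 21.2 CPM to 31.9 and 31.5 CPM (0.45 ± 0.10, adjusted p = 0.00874), a call lost without either co-cultured library (0.45 and 0.47). SLC25A21-AS1 (chr14:37171888-37173811, plus strand) had 16.7, 16.9 and 22.8 CPM in control and 13.5 and 13.1 CPM in co-culture (−0.50 ± 0.16, adjusted p = 0.0384). The groups were apart in each case. Its partner SLC25A21, the gene of a mitochondrial carrier of dicarboxylates, had 4.41, 2.65 and 3.12 CPM in control and 6.17 and 7.25 CPM in co-culture (0.98 ± 0.23, adjusted p = 0.0116). The call of SLC25A21-AS1 was lost without the third control library (−0.33) or either co-cultured library (−0.51 and −0.48) and that of SLC25A21 without either co-cultured library (1.10 and 0.86).

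LRRC75A-AS1 (chr17:16438822-16478678, plus strand), named SNHG29 in RefSeq as a host gene of small nucleolar RNAs, had the highest level of the 195. It fell from 856, 828 and 952 CPM to 654 and 618 CPM (−0.47 ± 0.09, adjusted p = 0.00469), a call lost without either co-cultured library (−0.50 and −0.42). LRRC75A had 27.02, 21.97 and 21.9 CPM in control and 37.7 and 33.8 CPM in co-culture (0.60 ± 0.12, adjusted p = 0.00509), a call lost without the first co-cultured library (0.52), and wrong-strand reads of LRRC75A-AS1 would make up at most 5.06% of its count. The groups were apart for both. TRAF3IP2-AS1 had 28.1, 26.4 and 28.5 CPM in control and 21.2 and 22.2 CPM in co-culture (−0.35 ± 0.10, adjusted p = 0.023), and TRAF3IP2, the gene of an adaptor of interleukin receptors, 24.9, 24.5 and 26.8 CPM in control and 35.2 and 30.8 CPM in co-culture (0.38 ± 0.10, adjusted p = 0.0198). The call of TRAF3IP2-AS1 was lost without the third control library (−0.33) or either co-cultured library (−0.31 and −0.38) and that of TRAF3IP2 without the second control library (0.36) or either co-cultured library (0.29 and 0.47).

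The antisense to sense ratio gave a test of the difference between the changes of both genes. Over all 411 -AS pairs of the table, 19.2% had a lower and 3.89% a higher ratio in co-culture at an adjusted p under 0.05 by limma. Among the 176 pairs the ratio was lower in 31 and higher in 4, with a median difference of −0.24 on the log2 scale. These calls changed with the libraries: 60 pairs were called without the first control library, 17 and 12 without the second and the third, and 0 and 1 by limma without the first and second co-cultured library, where 31 pairs in each case had an unadjusted p under 0.05. The largest differences were those of KDM4A (−1.92 ± 0.33, adjusted p = 0.00578) and RORA (−1.91 ± 0.27, adjusted p = 0.00578), followed by SLC25A25 (−1.44 ± 0.21, adjusted p = 0.00578), RAB30 (−1.38 ± 0.20, adjusted p = 0.00578) and SLC25A21 (−1.38 ± 0.28, adjusted p = 0.0109).

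RAB30-AS1 (chr11:83072066-83106719, plus strand) had 40.4, 42.8 and 43.7 CPM in control and 40.7 and 37.7 CPM in co-culture, groups that overlap (−0.11 ± 0.09, adjusted p = 0.368). RAB30, a small GTPase gene of the Golgi apparatus, rose from 18.6, 21.7 and 19.5 CPM to 48.7 and 49.00 CPM (1.29 ± 0.10, adjusted p = 4.99e-05), with the groups apart. The window printed above holds both starts, 143 bases apart, and 1 or 2 reads of the RAB30 strand fell on the exons of RAB30-AS1 in each library. The 4 pairs with a higher ratio, named after their values were seen, were MZF1 (1.10 ± 0.25, adjusted p = 0.0139), ADAMTSL4 (0.86 ± 0.26, adjusted p = 0.0413), ZNF337 (0.71 ± 0.20, adjusted p = 0.0339) and VLDLR (0.65 ± 0.21, adjusted p = 0.0475). The number of such calls depended on the setting. It was 9 without the first control library, 1 without the second and 0 without the third, 0 without either co-cultured library, and 0 with a pseudocount of 0.1 CPM. In the settings with 0 by limma, 31 to 48 ratios of either direction had an unadjusted p under 0.05. For MZF1, ADAMTSL4 and ZNF337 the antisense gene was not called and the sense gene was lower, at −0.66 ± 0.12 for MZF1 and −0.58 ± 0.09 for ZNF337, both zinc finger genes, and −1.03 ± 0.20 for ADAMTSL4. The call of MZF1 was lost without the second co-cultured library (−0.54) and that of ADAMTSL4 without the first co-cultured library (−1.02). VLDLR-AS1 rose from 44.1, 41.2 and 42.6 CPM to 69.9 and 75.8 CPM (0.77 ± 0.08, adjusted p = 0.00021), while VLDLR, a lipoprotein receptor gene, was not called (0.10 ± 0.10, adjusted p = 0.457).

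**Figure D5:**
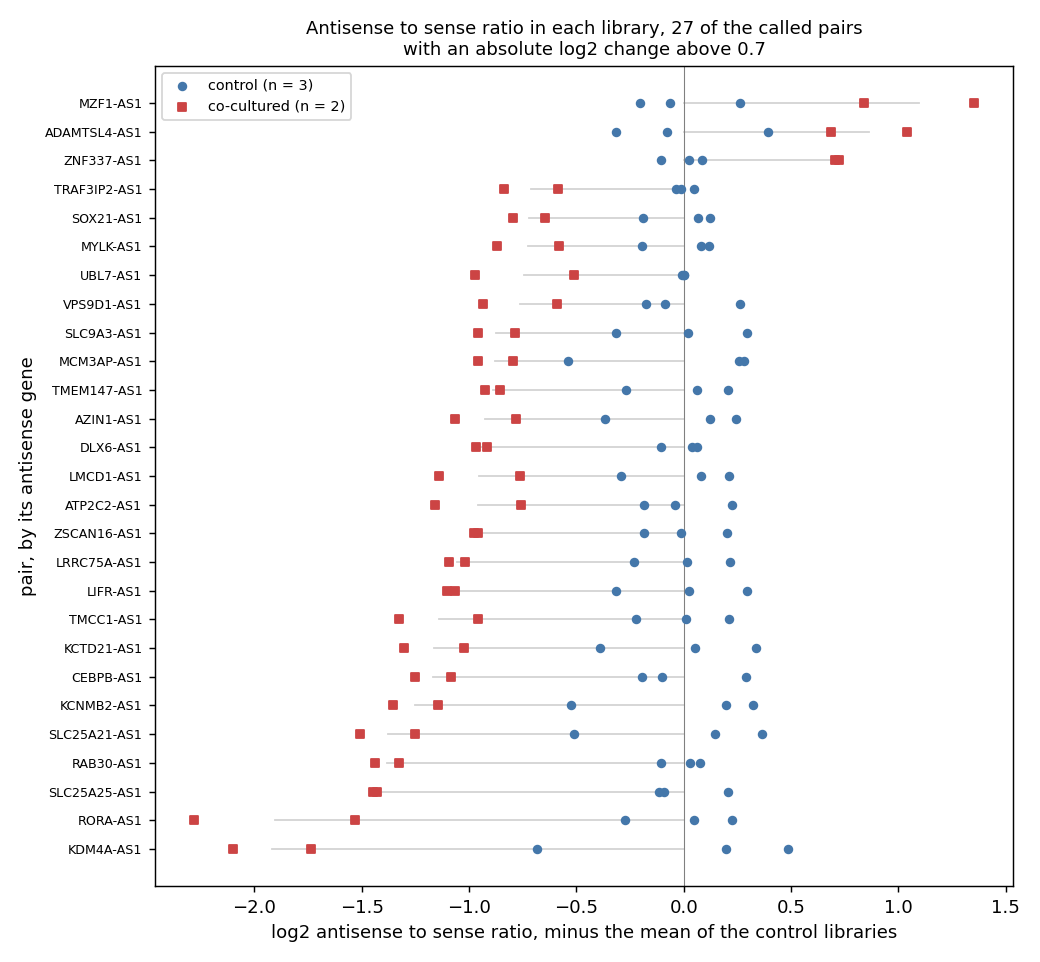
Log2 antisense to sense ratio per library, minus the mean of the control libraries, for 27 of the pairs called with an absolute difference above 0.7, with points for the 3 control and 2 co-cultured libraries. In the 24 pairs with a lower ratio both co-cultured libraries lie below every control library.

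Of the antisense genes of highest level, LRRC75A-AS1 and SLC9A3-AS1 were called. OIP5-AS1, a conserved long non-coding RNA, had 248, 275 and 287 CPM in control and 266 and 260.5 CPM in co-culture (−0.04 ± 0.09, adjusted p = 0.769), and NNT-AS1 lay between 99.6 and 114 CPM in all libraries (−0.01 ± 0.08, adjusted p = 0.955). In both the groups overlapped. GABPB1-AS1 had 165, 273 and 287 CPM in control and 185 and 182 CPM in co-culture (−0.40 ± 0.20, adjusted p = 0.154), and without the first control library, which lies below both co-cultured libraries, it was called at −0.61. CCDC144NL-AS1 (−0.15 ± 0.08), FGD5-AS1 (0.20 ± 0.12) and OTUD6B-AS1 (0.04 ± 0.09) were not called, although without the first control library CCDC144NL-AS1 (−0.19) and FGD5-AS1 (0.35) were. SLC9A3-AS1 (chr5:473236-480884, plus strand) fell from 208.9, 220.5 and 251 CPM to 124 and 119 CPM (−0.90 ± 0.10, adjusted p = 0.000237). SLC9A3, a sodium and proton exchanger gene of epithelia, had 124, 103 and 97.5 CPM in control and 102 and 109.9 CPM in co-culture, groups that overlap (−0.03 ± 0.11, adjusted p = 0.85).

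Levels of antisense and sense genes were compared per kilobase of exon. The antisense gene had the higher level in 61 of the 176 pairs, and the median antisense to sense ratio of these levels was 0.545. For head-to-head pairs the median was 0.389 and for pairs with overlapping 3′ ends 1.02. LRRC75A-AS1 stood 26.99-fold above LRRC75A on this scale. In 17 pairs the sense gene was too low for the test, among them FGD5, with at most 1 read per library beside an FGD5-AS1 level between 94.3 and 125 CPM.

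Near the minimum of 50 reads, the antisense genes just inside had 52 (ADAMTSL4-AS1), 52 (FOXD3-AS1) and 53 reads (DPP10-AS1) in their lowest library, and those just outside had 47 (SRRM2-AS1), 47 (SNAI3-AS1) and 48 reads (SAP30L-AS1), with TTC39C-AS1 and PRKAG2-AS1 also at 47. The log2 fold changes were −0.07, −0.08 and −0.02 for the former and −0.60, −0.74 and −0.42 for the first 3 of the latter, and 0.03 for TTC39C-AS1 and −0.14 for PRKAG2-AS1.

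Genes of nuclear RNA decay and of RNA duplexes were followed in a pair of lists, chosen from general knowledge. Whether their products act on the antisense RNAs described here was not tested. Of 27 names of nuclear RNA decay 26 were tested, the other being ARS2, an older name of SRRT, and 4 were higher and 4 lower (15.4% each, against 18.4% and 15% of all genes) with a median of −0.02. The exosome genes EXOSC6 (0.89 ± 0.17), EXOSC9 (0.24 ± 0.07) and EXOSC1 (0.27 ± 0.09) and the adaptor gene ZCCHC8 (0.31 ± 0.08) were higher. The exosome genes EXOSC2 (−0.40 ± 0.08) and EXOSC5 (−0.58 ± 0.14) were lower, as were NRDE2 (−0.53 ± 0.10) and SRRT (−0.64 ± 0.14). Of 20 genes that sense, process or edit RNA duplexes 19 were tested, and 9 were higher and 2 lower (47.4% and 10.5%, against 18.4% and 15%) with a median of 0.42. Those higher included OAS1 (2.28 ± 0.24), OAS3 (1.30 ± 0.14), DDX58 (1.23 ± 0.14) and IFIH1 (0.92 ± 0.11), which sense viral RNA, and the editing enzyme gene ADAR (0.46 ± 0.09). DROSHA (−0.38 ± 0.09) and the adaptor gene MAVS (−0.30 ± 0.08) were lower.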

How the data were processed

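RNA of 5 NCI-H209 cultures was sequenced, 3 control and 2 co-cultured, and grouped by the labels. Per the labels' processing notes the authors used CASAVA 1.8, STAR 2.6.1b, DESeq2 and GRCh38, in roles not given there. The deposited read counts are raw counts per gene on either strand and unstranded, and the directional column was used. The deposited comparison table holds the authors' means of normalized counts, a signal per group that was not used, and their own fold changes and p-values, which were not used, and only its gene names were read. Reads assigned to no gene (unmapped, multimapping, ambiguous or outside genes) were 66.4% to 69.3% per library and stayed out of library sizes. No sample was left out. Some genes are not reported here, though counts include them.

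Genes were filtered with filterByExpr, normalized by TMM and tested with edgeR 4.0.16 (quasi-likelihood, R 4.3.3) over all genes, with Benjamini-Hochberg adjustment. Ratios were tested with limma 3.58.1 on log2 of CPM with a pseudocount of 0.5 CPM, so that changes of low genes are understated. Calls have an adjusted p under 0.05. An exact permutation test of 3 against 2 libraries cannot go below p = 0.1. Expected wrong-strand reads were the opposite reads times the odds of the library's median error. Alternatives were DESeq2 1.42.0, other normalizations and filters, a replicate block, 1 library left out, both strands summed and wrong-strand reads subtracted. The fits were tested on simulated data. Positions come from GENCODE release 29 (GRCh38), promoters from RefSeq. Named genes were those called with an absolute log2 fold change above 1, pairs called in opposite directions, the largest ratio changes, the highest levels and genes next to the minimum of 50 reads. Members and lists were chosen with earlier results of these data known. Depth limits genes near that minimum most.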

Additional observations from a re-analysis of the deposited data

How the results depend on the processing

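With 1 library left out in turn, antisense genes called ranged from 18 to 94, those higher from 5 to 20, those lower from 13 to 74 and those meeting the criterion of the study from 7 to 15. Pairs with both genes called ranged from 3 to 55, in the same direction from 3 to 32 and in opposite directions from 0 to 23, by edgeR, and pairs with a called ratio from 0 to 60 by limma, where the fits without a co-cultured library assume that the lone library varies like the others. The labels give 2 shared replicate numbers, and nothing says that equal numbers mark a shared day or batch. With the replicate number as a block, 29 antisense genes were lower, 10 pairs had both genes called, 9 in the same direction and 1 in opposite directions, and 0 ratios were called by limma, 36 having an unadjusted p under 0.05. With the strands summed 3 pairs were called in opposite directions. With a minimum of 100 reads 9 of 135 antisense genes were higher, and with a pseudocount of 0.1 CPM 12 ratios were called. The fits with 1 library left out hold fewer libraries and the minimum of 100 reads fewer genes, and the cause of the other shifts was not tested. DESeq2, median-ratio normalization, upper-quartile normalization, the filters on low counts and subtraction of wrong-strand reads left the counts of antisense genes and of pairs with both genes called within 1.5 times. Of these settings the called ratios were recomputed with the subtraction alone, where they were 36.

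Over single genes and settings, 932 values kept direction and call, 121 lost and 11 gained the call, and 40 changed sign. The log2 fold changes that changed sign were NNT-AS1 0.00275 and GABPB1 0.00523 by DESeq2, NNT-AS1 0.00274 and GABPB1 0.00486 by median-ratio normalization, and OTUD6B-AS1 −0.0359, TMCC1 −0.0169 and ZSCAN16 −0.0616 by upper-quartile normalization. With the block they were FOXD3-AS1 0.18, NNT-AS1 0.0325, OIP5-AS1 0.0105 and OTUD6B-AS1 −0.00248. With the strands summed they were ADAMTSL4-AS1 0.32, DPP10-AS1 0.0442, FOXD3-AS1 0.0156, NNT-AS1 0.0574, OIP5-AS1 0.00441, RAB30-AS1 0.000885, RORA-AS1 0.0487, SAP30L-AS1 0.18, ZNF337-AS1 −0.00516, CCDC144NL 0.036, GABPB1 0.0203 and KDM4A −0.0515. With 1 library left out the ranges that crossed 0 were −0.27 to 0.13 (ADAMTSL4-AS1), −0.21 to 0.18 (DPP10-AS1), −0.29 to 0.16 (FOXD3-AS1), −0.0925 to 0.10 (GABPB1), −0.0601 to 0.0352 (NNT-AS1), −0.0908 to 0.0119 (OIP5-AS1), −0.000364 to 0.11 (OTUD6B-AS1), −0.0965 to 0.0805 (SLC9A3) and −0.0299 to 0.0761 (ZSCAN16). The median SE of the antisense genes was 0.158 on the log2 scale.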
